A study of Homo sapiens with 6 samples.

Results

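The immediate early transcription factors described here are 10 genes, FOS, FOSB, FOSL1, FOSL2, JUN, JUNB, EGR1, NR4A1, ATF3 and MYC, taken by symbol from the 38557 genes listed in the deposited count tables. All 10 were listed, and all 10 passed the filter on low counts that left 16107 genes for testing. The cells sequenced were cardiomyocytes made from the induced pluripotent stem cell line WTC11, an established human line that the labels call wild type. The cells had been kept in 1 of 2 backbone media, RPMI plus B27 (a serum-free supplement) or DMEM plus fatty acids, with 3 biological replicates in each. No other treatment is named, and the labels give neither the full composition of the media, nor the time spent in them, nor the time between the last feeding and harvest. All 6 libraries come from the same cell line, and nothing in the labels says whether the replicates were separate differentiations, so the p values measure the spread between these cultures.

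Immediate early genes are switched on within minutes of a stimulus such as a growth factor, stretch, calcium entry or stress, without new protein synthesis, because the factors that act on their promoters are already present and need only be phosphorylated. Their mRNAs are short-lived, so their level at harvest follows recent signalling and handling. FOS and JUN proteins pair through leucine zippers to form activator protein 1 (AP-1), EGR1 is a zinc finger factor, NR4A1 an orphan nuclear receptor, ATF3 a leucine zipper factor also induced by the integrated stress response, and MYC a helix-loop-helix factor that drives growth. In heart muscle several of these genes are early markers of hypertrophic and mechanical stimulation.

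Each library held 23232324 to 31035389 gene counts. Values below are counts scaled to a common library total (CPM) after TMM, a method that corrects library totals for composition. Each log2 fold change is taken with RPMI plus B27 as the reference, so negative values are lower in DMEM plus fatty acids, and is given with its standard error (SE). A gene was called when its p value from edgeR's quasi-likelihood test, adjusted by Benjamini-Hochberg over all genes tested, was under 0.05. Of the 16107 genes, 219 (1.36%) were called, 172 lower and 47 higher in DMEM plus fatty acids, so lower genes made up 78.5% of calls (63.4% when libraries were scaled by total counts). The cardiomyocyte marker TNNT2 stood at 3001 to 4216 CPM over the 6 libraries. Summed over 13 fibroblast and stromal markers, CPM was 8416, 5394 and 4341 in RPMI plus B27 replicates 1 to 3 and 758.5, 1959 and 1810 in DMEM plus fatty acids, with DCN at 0 counts in 1 library and FAP in 3. In such bulk samples, fewer cells of a type and less RNA per cell cannot be told apart.

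Stretches of promoter are shown for 6 members whose windows held a binding motif of the factors that act on immediate early genes, with the motif in capitals. Windows of 300 bases (250 before the start site) were taken from RefSeq on GRCh38.p14 for 8 of the 10 members, and the parts printed lie before the start site (that of JUN within an exon of a longer transcript in GENCODE v29). The CArG box is the site of serum response factor, SRF. TGACG is one side of TGACGTCA, the cyclic AMP response element, and TGACATCA is a variant of that element known from the JUN promoter. The stretches are, for EGR1 chr5:138465319-138465442 (plus strand, -160 to -37 from the start site), for FOS chr14:75278739-75278773 (plus, -89 to -55), for FOSB chr19:45467911-45467965 (plus, -85 to -31), for FOSL2 chr2:28392767-28392801 (plus, -91 to -57), for JUN chr1:58784096-58784125 (minus, -78 to -49) and for the first of the ATF3 windows chr1:212565259-212565316 (plus, -148 to -91).
EGR1: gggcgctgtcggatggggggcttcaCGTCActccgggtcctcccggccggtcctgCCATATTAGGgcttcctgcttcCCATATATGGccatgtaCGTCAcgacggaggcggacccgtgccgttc
FOS: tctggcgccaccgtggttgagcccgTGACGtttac
FOSB: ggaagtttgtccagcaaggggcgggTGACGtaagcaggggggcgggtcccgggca
FOSL2: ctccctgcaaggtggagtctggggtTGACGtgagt
JUN: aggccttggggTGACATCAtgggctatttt
ATF3: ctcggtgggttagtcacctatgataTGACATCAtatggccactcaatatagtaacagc
EGR1 held 2 CArG boxes, with a TGACG site read on the other strand (CGTCA) on either side of the pair. In FOS a TGACG site stood at -64 to -60, in FOSB at -60 to -56 and in FOSL2 at -66 to -62. JUNB (-137 to -133) and JUN (-123 to -119) held one as well, outside the stretches printed. JUN and ATF3 both held TGACATCA, a motif added to the search after the sequences and values had been seen. On both strands, a CArG box was found in 1.29% of the 35116 RefSeq windows of this length, TGACG in 24.6% and TGACATCA in 2.61%, against 1, 6 and 2 of the 10 windows of the members (NR4A1 and ATF3 have 2 windows each). The AP-1 site TGANTCA occurred in 1 of the 10 (FOSL2, within the transcribed part) and in 7.71% of all windows. TGACGTCA (1.85% of all windows), the E-box CACGTG (7.26%) and the EGR site GCGTGGGCG (0.795%) were not found in the members' windows. A match describes the letters only.

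Of the 10 members, 9 were lower in DMEM plus fatty acids by their fitted fold change, where 49% of all genes tested were, and 2 were called, FOSB and FOSL2, both lower, where 1.07% of all genes were called lower. NR4A1 was called as well when the replicate number was entered as a block, a fit that called 4.78% of all genes, 3.42% lower. For 4 members the ranges of the media did not overlap (FOSB, FOSL2, NR4A1 and ATF3), all lower in DMEM plus fatty acids, where 12.8% of all genes were lower without overlap. The median log2 fold change of the members was -1.04, against 0.01 over all genes.

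**Figure D1:**
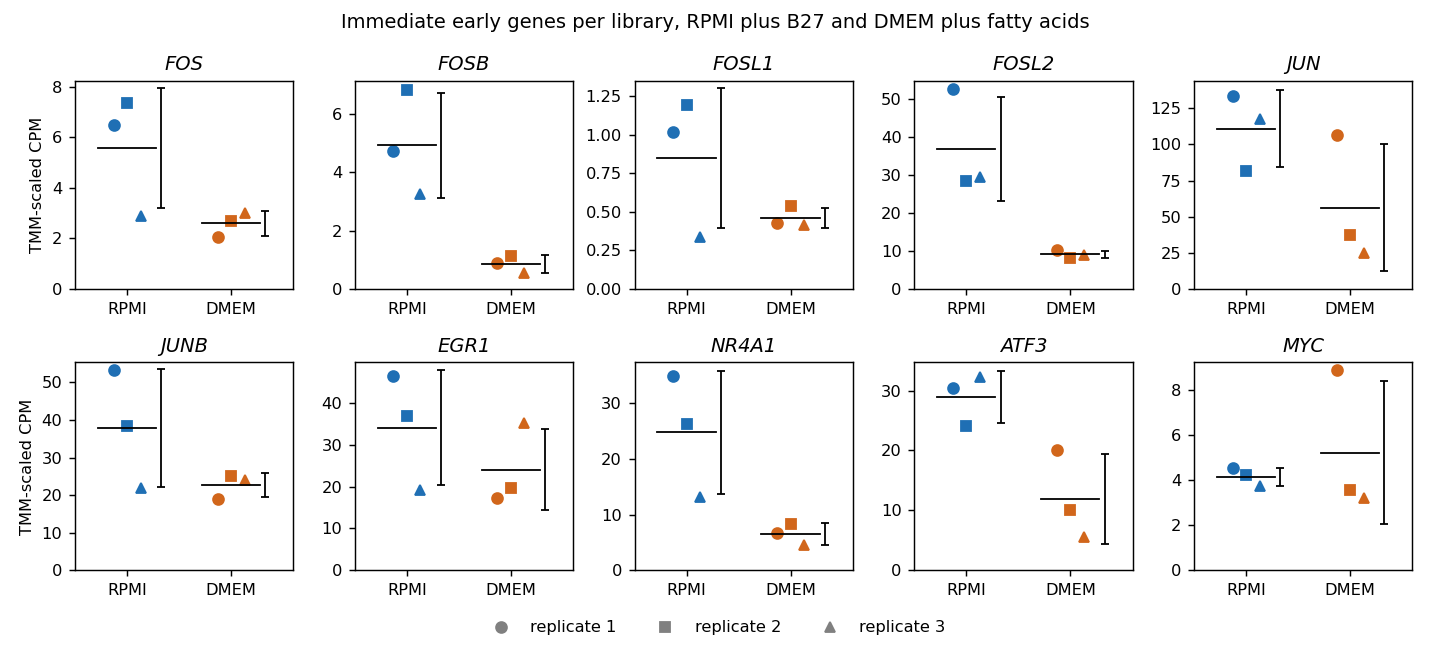
TMM-scaled CPM of each of the 10 genes (vertical axes from 0, 1 scale per gene) in the 3 RPMI plus B27 libraries (blue) and the 3 DMEM plus fatty acids libraries (orange), with the marker shape giving the replicate number, a line at the mean and a bar for the SD. FOSB, FOSL2, NR4A1 and ATF3 show no overlap between media, and JUN, ATF3 and MYC are highest within DMEM plus fatty acids in replicate 1.

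FOSL2 encodes Fra-2, a FOS relative that lacks the strong activation domain of FOS and persists longer after a stimulus. It stood at 52.6, 28.5 and 29.6 CPM in RPMI plus B27 replicates 1 to 3 and at 10.2, 8.29 and 9.04 CPM in DMEM plus fatty acids. The DMEM plus fatty acids libraries were close to each other and all below the lowest RPMI plus B27 library. Its log2 fold change was -2.01 ± 0.27 (SE, n = 3 per medium), or 4.03 times less, with an adjusted p of 0.0297 by edgeR. Within pairs of libraries with the same replicate number the log2 differences were -2.36, -1.77 and -1.71.

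FOSB, which lies on chromosome 19 and is strongly inducible in muscle and nerve, was less abundant. It had 4.71, 6.81 and 3.24 CPM in RPMI plus B27 (125, 160 and 87 counts) and 0.904, 1.14 and 0.534 CPM in DMEM plus fatty acids (21, 34 and 18 counts). The media did not overlap, and the lowest RPMI plus B27 library was well above the highest of the other medium. Its fold change was the largest of the 10, at -2.52 ± 0.41 on the log2 scale, or 5.73 times less (adjusted p 0.0423 by edgeR), with differences of -2.29, -2.51 and -2.45 within the pairs.

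The calls of FOSL2 and FOSB varied with the libraries included. Leaving out 1 library also cut the calls over all genes from 219 to between 3 and 131. FOSL2 kept its call without RPMI plus B27 replicate 1 or 3 and lost it without RPMI plus B27 replicate 2 (adjusted p 0.0848) or DMEM plus fatty acids replicate 1 (0.0854), 2 (0.104) or 3 (0.0909). FOSB kept its call only without RPMI plus B27 replicate 3, and lost it without RPMI plus B27 replicate 1 (0.0894) or 2 (0.123) or DMEM plus fatty acids replicate 1 (0.110), 2 (0.115) or 3 (0.103). Over those 6 fits the log2 fold change stayed between -2.17 and -1.67 for FOSL2 and between -2.78 and -2.21 for FOSB.

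FOS itself, the founding member of the family, had 6.48, 7.36 and 2.91 CPM in RPMI plus B27 and 2.07, 2.71 and 3.02 CPM in DMEM plus fatty acids. RPMI plus B27 replicate 3 fell among the DMEM plus fatty acids libraries, so the media overlapped. The log2 fold change of -1.10 ± 0.38 was not called (adjusted p 0.199, and 0.180 with the replicate block), and the pair of replicate 3 showed a difference of 0.05 against -1.61 and -1.42 in the other pairs. FOSL1, which encodes Fra-1 and is usually a late and weak member outside of growing cells, had between 9 and 28 counts per library. It gave 1.02, 1.19 and 0.336 CPM in RPMI plus B27 and 0.431, 0.535 and 0.415 CPM in DMEM plus fatty acids, which overlapped (-0.87 ± 0.50, adjusted p 0.410). A difference of that size was not detectable in FOSL1 with these libraries.

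Levels were compared between genes only as CPM per kilobase of exon, using the union of exons in the GENCODE v29 basic set, which may not be the annotation the submitters counted with. On that scale the FOS family summed to 11.4, 8.57 and 6.12 CPM per kilobase in RPMI plus B27 and to 2.60, 2.64 and 2.68 in DMEM plus fatty acids, without overlap. FOSL2 was the most abundant member in every library, with 62.8% ± 12.2 of the family (SD, n = 3) in RPMI plus B27 against 51.2% ± 5.83 (SD, n = 3) in the other medium, which overlapped. The share of FOS was 21.6% ± 6.80 and 33.5% ± 5.78, and that of FOSB 10.4% ± 3.51 and 5.87% ± 2.12, and both overlapped between media. That of FOSL1, a gene with 9 to 28 counts per library, was 5.14% ± 2.30 and 9.48% ± 1.37, without overlap. These shares were not tested.

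JUN, the main partner of FOS in AP-1 and a target of the stress kinase JNK, had 133.5, 81.3 and 117.8 CPM in RPMI plus B27 and 106.3, 37.3 and 25.1 CPM in DMEM plus fatty acids. DMEM plus fatty acids replicate 1 lay within the RPMI plus B27 range, and the other 2 libraries of that medium lay below it. Its change of -0.98 ± 0.50 on the log2 scale was not called (adjusted p 0.360). Leaving out DMEM plus fatty acids replicate 1 gave -1.83, still not called. JUNB, a JUN relative that often restrains JUN, had 53.3, 38.5 and 22.0 CPM against 19.1, 25.1 and 24.0 CPM. Here it was RPMI plus B27 replicate 3 that fell among the DMEM plus fatty acids libraries (-0.74 ± 0.30, adjusted p 0.265). The exons of JUNB overlap those of HOOK2 on the opposite strand over 259 bases in GENCODE v29, and the strand setting of the counting is not stated, so its counts are less certain.

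JUND, a family member outside the 10 that is present in resting cells, was the most abundant of the JUN genes per length in every library, with 62.1% to 71.1% of their sum. It had 234.2, 150.1 and 170.8 CPM in RPMI plus B27 and 185.6, 86.7 and 61.8 CPM in DMEM plus fatty acids, which overlapped (-0.73 ± 0.39, adjusted p 0.380). As for JUN, the high library of DMEM plus fatty acids was replicate 1. The JUN genes together gave 192.7, 124.7 and 137.1 CPM per kilobase in RPMI plus B27 and 140.1, 70.9 and 53.5 in DMEM plus fatty acids.

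EGR1, a zinc finger factor whose promoter carries the CArG boxes printed above, had 46.3, 36.9 and 19.1 CPM in RPMI plus B27 and 17.3, 19.6 and 35.04 CPM in DMEM plus fatty acids. RPMI plus B27 replicate 3 lay within the range of the other medium, and DMEM plus fatty acids replicates 2 and 3 lay within that of RPMI plus B27. A log2 fold change of -0.51 ± 0.38 was not called (adjusted p 0.531), with differences of -1.41, -0.91 and 0.88 within the pairs. Its relatives EGR2 (-0.55 ± 0.52) and EGR3 (-1.01 ± 0.43) were not called either (adjusted p 0.621 and 0.277), and EGR4 was too low to be tested.

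NR4A1, a nuclear receptor that acts without a known natural ligand and is induced by adrenergic and calcium signals, had 34.97, 26.3 and 13.1 CPM in RPMI plus B27 and 6.76, 8.43 and 4.56 CPM in DMEM plus fatty acids. The media did not overlap. The log2 fold change was -1.91 ± 0.39 with an adjusted p of 0.0671, just outside the threshold, and -1.85 ± 0.21 with 0.0150 under the replicate block (edgeR in both fits). It was lower in all 3 pairs, at -2.36, -1.64 and -1.51. Without RPMI plus B27 replicate 3, its lowest library in that medium, it was called (adjusted p 0.0418). NR4A1 exons overlap those of an antisense gene, AC025259.3, over 754 bases in GENCODE v29, so the caution given for JUNB holds here too.

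NR4A3, a relative of NR4A1, had 10.8, 6.64 and 3.92 CPM against 2.88, 1.61 and 1.66 CPM. The media did not overlap, and its log2 fold change of -1.80 ± 0.43 had an adjusted p of 0.0974, or 0.0255 with the block. NR4A2 lay between 0.267 and 0.669 CPM in all 6 libraries, with no separation of the media (-0.26 ± 0.42, adjusted p 0.789).

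ATF3 had 30.4, 24.0 and 32.3 CPM in RPMI plus B27 and 20.2, 9.999 and 5.60 CPM in DMEM plus fatty acids. The media did not overlap, but the DMEM plus fatty acids libraries were spread over a wide range, with replicate 1 the highest. Its log2 fold change of -1.28 ± 0.42 was not called without the block (adjusted p 0.183) or with it (0.0797). By the Wald test of DESeq2 it was called (adjusted p 0.0394), and its adjusted p ran from 0.0394 to 0.409 over its 12 alternatives.

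MYC was the exception in direction. It had 4.52, 4.21 and 3.73 CPM in RPMI plus B27, the tightest spread of the 10 genes in that medium, and 8.87, 3.58 and 3.20 CPM in DMEM plus fatty acids. Only replicate 1 of DMEM plus fatty acids was above the RPMI plus B27 range, and the other 2 libraries were below it. The log2 fold change of 0.32 ± 0.41 (adjusted p 0.728) became -0.30 without that library, so no direction can be given. MYCN, its relative, had 33.1, 13.6 and 39.4 CPM against 18.3, 5.75 and 13.7 CPM, with an adjusted p of 0.272 for a log2 fold change of -1.19 ± 0.50, and of 0.0237 with the block. Every pair was lower for MYCN, although the media overlapped. MYCL was not called (0.11 ± 0.35, adjusted p 0.898).

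**Figure D2:**
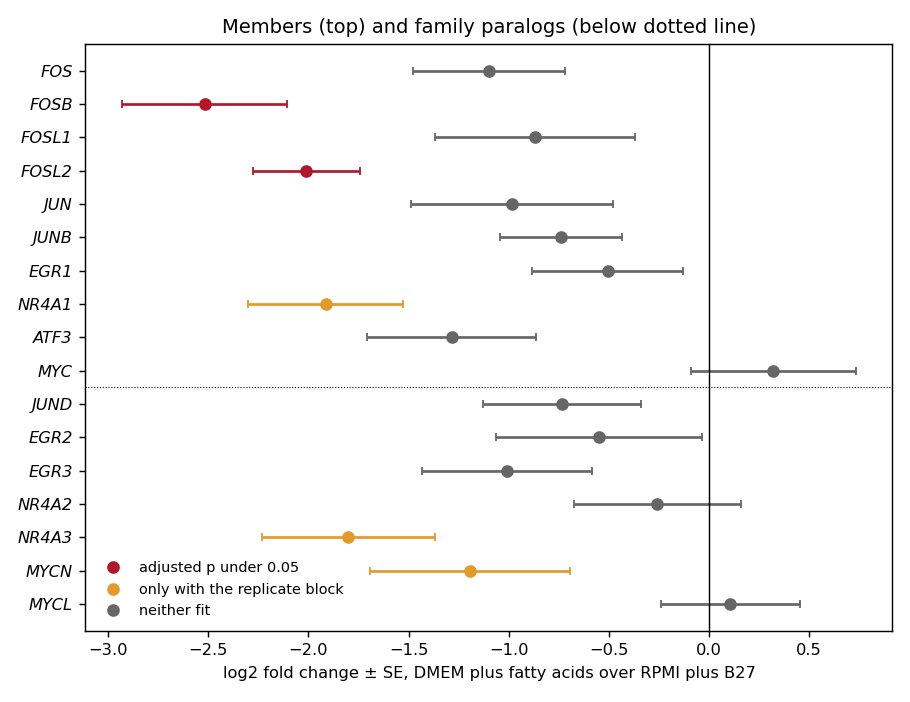
Fitted log2 fold change with RPMI plus B27 as the reference (horizontal axis) with its SE for the 10 members (above the dotted line) and the 7 tested family paralogs (below it). FOSB and FOSL2 (red) were called, NR4A1, NR4A3 and MYCN (yellow) were called only with the replicate block, and the other genes (grey) in neither fit.

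Ordered by CPM per kilobase in RPMI plus B27, JUND stood highest (99.3 ± 23.5, SD, n = 3), followed by JUN (31.3 ± 7.56), JUNB (20.8 ± 8.60), ATF3 (11.4 ± 1.71), EGR1 (10.9 ± 4.41), NR4A1 (6.12 ± 2.71), FOSL2 (5.43 ± 2.01), FOS (1.90 ± 0.803), MYC (1.38 ± 0.133), FOSB (0.886 ± 0.323) and FOSL1 (0.461 ± 0.246). Neighbours in this order overlapped between libraries except JUND with JUN, FOSL2 with FOS, and MYC with FOSB. In DMEM plus fatty acids the order was JUND (59.8 ± 35.1), JUN (15.9 ± 12.4), JUNB (12.5 ± 1.74), EGR1 (7.64 ± 3.08), ATF3 (4.70 ± 2.94), MYC (1.74 ± 1.06), NR4A1 (1.62 ± 0.478), FOSL2 (1.35 ± 0.138), FOS (0.885 ± 0.166), FOSL1 (0.250 ± 0.0355) and FOSB (0.155 ± 0.0548). By the mean, NR4A1 and FOSL2 stood below MYC in this medium, through replicate 1 alone, since in replicates 2 and 3 both were above it as in RPMI plus B27, and FOSB had passed to the last place. Neighbours that did not overlap were JUND with JUN, FOSL2 with FOS, FOS with FOSL1, and FOSL1 with FOSB.

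The members also differed in which replicates were high within a medium, measured as the deviation of log2 CPM (prior count 2) from the mean of that medium. In RPMI plus B27, replicate 3 was the low library for FOS (-0.82), FOSL1 (-1.01), NR4A1 (-0.80), EGR1 (-0.74), JUNB (-0.69) and FOSB (-0.53), whereas JUN (0.12) and ATF3 (0.17) were not low there. In DMEM plus fatty acids, replicate 1 was the high library for JUN (1.20), ATF3 (0.95), MYC (0.91) and JUND (0.89), and replicate 3 the low one (-0.88, -0.89, -0.54 and -0.69). FOS (-0.30), JUNB (-0.24) and EGR1 (-0.40) were lowest in that replicate 1 instead. JUN and ATF3 thus deviated the same way in every library, while FOS, JUNB and EGR1 followed another order. These are descriptions of 6 libraries, without a test. The summed CPM of the fibroblast and stromal markers was highest in RPMI plus B27 replicate 1 and lowest in DMEM plus fatty acids replicate 1, and that of the 20 integrated stress response genes was highest in DMEM plus fatty acids replicate 1 (1597 CPM against 1075 and 1295 in the other 2 libraries). Their part in the pattern was not tested.

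**Figure D3:**
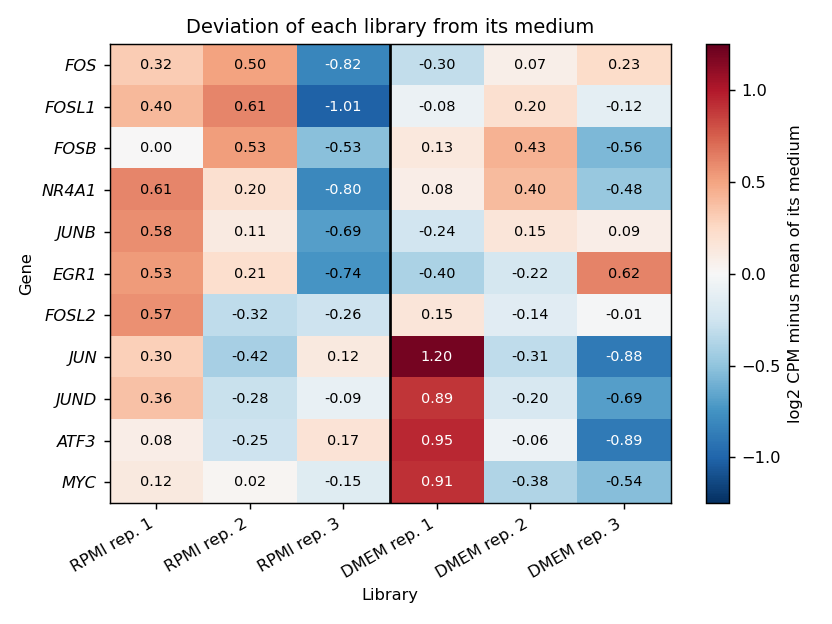
Deviation of log2 CPM from the mean of the library's own medium for the 10 members and JUND (rows) in the 6 libraries (columns), with red above and blue below the mean and the value printed in each cell. RPMI plus B27 replicate 3 is low for the upper 6 genes, and DMEM plus fatty acids replicate 1 is high for JUN, JUND, ATF3 and MYC.

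Other genes of the early response were counted from lists written with earlier results of these data known. Of 33 further immediate early genes, 32 were tested and 27 were lower in DMEM plus fatty acids, with a median log2 fold change of -0.58. In this list 18 had no overlap between media in either direction, where 25.6% of all genes did. In the main fit 1 was called, lower, where 1.07% of all genes were called lower. That gene was HBEGF, a membrane-bound growth factor that activates the EGF receptor upstream of FOS and EGR1, at 67.6, 44.0 and 53.8 CPM against 14.1, 13.3 and 7.05 CPM (-2.26 ± 0.29, adjusted p 0.0292). The block, which called 3.42% of all genes lower, called 8 of the list, all lower. Among them, named after their values were seen, were the matricellular genes CCN1 (from 120.6 to 198.9 CPM in RPMI plus B27 and from 18.5 to 51.3 in DMEM plus fatty acids, adjusted p 0.0774 without and 0.0220 with the block) and CCN2 (401.2 to 759.7 and 21.0 to 140.4 CPM, 0.0808 and 0.0237), and IER3, a survival gene (26.7 to 64.1 and 5.04 to 13.98 CPM, 0.0808 and 0.0131). CCN2 is also abundant in fibroblasts. Of the 12 fibroblast and stromal markers tested, 11 were lower in DMEM plus fatty acids and 1 was higher. The part of these cells in the level of CCN2 was not tested.

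Of 16 genes widely described as AP-1 targets 12 were tested, and 12 of 12 were lower by their fitted fold change, with a median of -1.53. That median was -0.92 when genes under 10 counts in any library were left out. EDN1, the precursor of the hypertrophic peptide endothelin 1, was the 1 gene called, where 1.07% of all genes were called lower. It had 30.4, 14.2 and 12.2 CPM in RPMI plus B27 and 1.29, 1.74 and 0.978 CPM in DMEM plus fatty acids, without overlap (-3.82 ± 0.44, adjusted p 0.0252). With the block, which called 3.42% of all genes lower, 5 were called, all lower, among them CCND1, IL11, EDN1 and SPP1. Among cell type lists, fibroblast and stromal markers had 6 of 12 tested genes called, all lower (COL1A1, DCN, FBN1, LOX, POSTN and COL3A1), and 8 with the block, which added LUM and PDGFRA. Many AP-1 targets are also expressed in stromal cells. The part of these cells in the fall of EDN1, FOSL2 and FOSB was not tested.

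Proteins that pair with FOS, JUN or ATF3 did not share one direction. Of 15 listed leucine zipper genes 13 were tested, 9 higher and 4 lower, with a median of 0.10 and 0 called by edgeR. The block added 2 calls, the small MAF genes MAFF and MAFK, both lower, and 6 had an unadjusted p under 0.05, as did 17.7% of all genes tested. Among those smallest in p were MAF (1.34 ± 0.28), MAFF (-1.79 ± 0.40) and JDP2 (0.71 ± 0.20), a repressor of AP-1, with adjusted p values of 0.0710, 0.0836 and 0.135. ATF2, a JUN partner, had -0.03 ± 0.11 (adjusted p 0.925). The upstream kinases and promoter factors had a median of -0.08, a sign that turned when libraries were scaled by total counts (0.03). Of these, 0 of 24 were called by edgeR, where 6 had an unadjusted p under 0.05. Under the block 1 of them, the kinase RPS6KA3 (RSK2), was called (-0.75 ± 0.21, adjusted p 0.140 without and 0.0335 with it). CREM (0.47 ± 0.16), ELK3 (-0.80 ± 0.28) and MRTFA (-0.35 ± 0.12) completed the 4 with the smallest p, and their adjusted p values were 0.199, 0.200 and 0.203.

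Feedback genes that limit the response had a median of -0.32, with 9 of 11 lower and 0 called by edgeR (3 at an unadjusted p under 0.05). DUSP1, a phosphatase that switches off MAP kinases and is itself an immediate early gene, had 38.7, 19.2 and 17.8 CPM against 7.88, 10.5 and 5.51 CPM, without overlap (-1.66 ± 0.37, adjusted p 0.0832, and 0.0357 with the block). SPRY4 (-0.78 ± 0.26, adjusted p 0.191) and ZFP36 (-0.61 ± 0.21, adjusted p 0.197), which marks short-lived mRNAs for decay, were not called in either fit.

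No listed partner or target of MYC was called in either fit. Its dimer partners and antagonists had a median of -0.03, a sign that turned when libraries were scaled by total counts (0.07) or RPMI plus B27 replicate 1 was left out (0.075), with 0 of 9 called by edgeR and 2 at an unadjusted p under 0.05, MLXIP (-0.48 ± 0.13) and MXI1 (-0.69 ± 0.25). The MYC targets of ribosome production and growth had a median of 0.13, with 14 of 18 higher and 0 called (3 at an unadjusted p under 0.05, a share near the 17.7% of all genes). CDK4 (0.40 ± 0.12, adjusted p 0.147) had the smallest p of that list and was higher, while the others of those 3 were lower.

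By its fitted direction ATF3 stood opposite to most genes of the integrated stress response, the programme that follows phosphorylation of the translation factor eIF2. Of 20 listed genes other than ATF3, 19 were tested, and 14 were higher in DMEM plus fatty acids with a median of 1.10. PSAT1 (2.01 ± 0.32), SHMT2 (1.27 ± 0.21) and NUPR1 (4.39 ± 0.73) were called, all higher (adjusted p 0.0406, 0.0427 and 0.0427), where 0.292% of all genes were called higher. With the block, which called 1.36% of all genes higher, 8 were called, all higher. ATF4, which acts above ATF3 in this programme, was at 141.7 to 189.3 CPM in RPMI plus B27 and 123.5 to 211.1 CPM in DMEM plus fatty acids (-0.04 ± 0.23, adjusted p 0.945). DDIT3 (CHOP), a stress factor, had 12.6, 12.6 and 5.82 CPM against 46.5, 20.6 and 11.9 CPM (1.35 ± 0.52, adjusted p 0.239). Within DMEM plus fatty acids DDIT3 and ATF3 were both highest in replicate 1 and lowest in replicate 3, while between media their fitted directions were opposite.

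**Figure D4:**
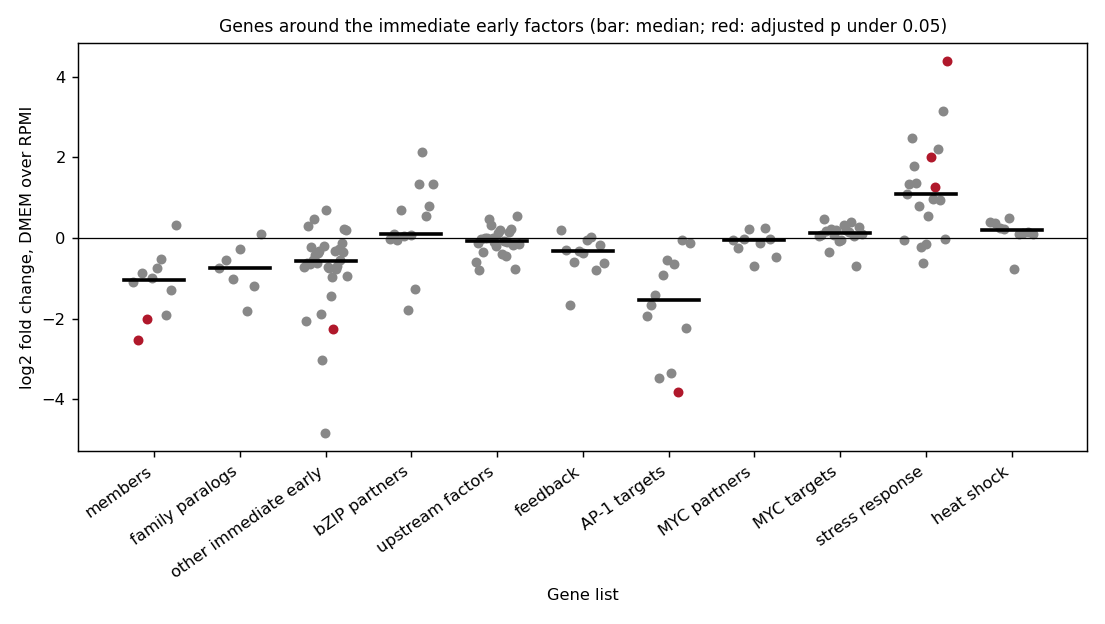
Fitted log2 fold change with RPMI plus B27 as the reference (vertical axis) for each tested gene of the members and 10 related lists (horizontal axis), with a bar at the median and called genes in red. AP-1 targets, with a median of -1.53, and the members lie mostly below 0, and the stress response list, with a median of 1.10, mostly above it.

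Heat shock genes, which handling of cells can also raise, had a median of 0.19, with 9 of 10 higher and 0 called by edgeR (2 at an unadjusted p under 0.05, again near the 17.7% of all genes). HSPA1B, a stress-inducible chaperone, had 16.2 to 19.7 CPM in RPMI plus B27 and 20.4 to 26.4 CPM in DMEM plus fatty acids (0.39 ± 0.16, adjusted p 0.281). HSPB1 (-0.76 ± 0.21, adjusted p 0.127) was the 1 member of the list that was lower. Handling before harvest is not described in the labels, and its part in the levels of the members was not tested.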

How the data were processed

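A stranded mRNA kit was used on total RNA, per the protocols in the labels. The submitters' processing notes name STAR, HTSeq and the build hg38, without settings, and the annotation and strand setting are not given in the sources used here. Each of the 6 files as deposited gives unnormalized counts by gene symbol. The 5 summary rows were left out, and gene rows held 84.4% to 87.2% of each library. Counts were fitted in edgeR 4.0.16 (R 4.3.3) after filterByExpr (minimum count 10, minimum total 15) with TMM scaling and no covariate, with a threshold of 0.05 on Benjamini-Hochberg adjusted p. DESeq2 1.42.0 was an alternative. SEs are those implied by the F statistic. Scripts were tested on simulated data. Each CPM uses the scaled total of tested genes, and 3 counts correspond to 0.0889 to 0.129 CPM.

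Replicate numbers come from the titles. Deviations of same-numbered libraries correlated at 0.31 to 0.43 across genes, and those of other numbers at -0.24 to -0.14. Deviations cancel out within a medium, so positive values for same numbers force negative ones for other numbers, which add no separate support. The main fit left the replicate number out, so its calls, SEs and adjusted p values do not use this pairing. Only the block entered it, as an alternative fit. The block is given where it changes the call of a member or the number called in a list.

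The members, lists, motifs and rule for named genes (all members and family paralogs, list genes past the threshold or otherwise up to 4 with the smallest p, and the 3 genes most like each member) were chosen with earlier results of these data known. Cell type lists covered cardiomyocyte, fibroblast, smooth muscle, epicardial, endothelial, pluripotency and endoderm markers. Of the list genes this rule selects or the text counts, 2 are not reported here by name.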

Additional observations from a re-analysis of the deposited data

How the results depend on the processing

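Of the members, 9 kept a negative log2 fold change under all 12 alternatives (11 for FOSL1, which was not tested with at least 10 counts in every library), and MYC turned to -0.30 without DMEM plus fatty acids replicate 1 (-0.30 to 0.58 over the 6 fits that left out 1 library). Members past the threshold numbered 2, 4 by DESeq2 (with NR4A1 and ATF3), 3 without a filter on low counts and with the replicate block (with NR4A1), and 0 to 3 when 1 library was left out. Over all genes the count of 219 became 1218 by DESeq2, 539 without a filter, 119 with at least 10 counts in every library, 770 with the replicate block, and 3 to 131 when 1 library was left out, where fewer samples were tested. Otherwise the cause was not tested. The block changed no call among the 10 members other than that of NR4A1. Scaling by total counts moved the median of all genes from 0.01 to 0.12. Of 204 list medians under alternatives, 5 changed sign and 15 moved by more than the replicate spread. Among the sign changes, those of the endothelial and pluripotency lists were the values of KDR and TDGF1 alone. Of 204 counts of called genes in a list, 67 moved by more than a fixed ratio, or to or from 0. FOSL1, at 9 to 28 counts per library, has the least depth of the members.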

Other observations

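Markers of other cell types gave the following values beside the members, where genes called with the replicate block are named after their values were seen. Smooth muscle markers were lower for 8 of 8 genes (median -1.42). LMOD1 was called, and the block added CNN1 and PDGFRB, both lower. Epicardial markers were lower for 6 of 6 tested genes (median -1.11). KRT8 was called, and the block added KRT18, KRT19 and TBX18, all lower. Endothelial markers had 4 of 7 genes tested (median -1.55, 0 called by edgeR, 2 at an unadjusted p under 0.05), and PECAM1 and CDH5 were at 0 counts in 3 libraries each. When no library was allowed under 10 counts, only KDR of this list remained, so the value of 1.254 was that of KDR alone. KDR, a receptor for vascular endothelial growth factor and the most abundant of the endothelial list, was at 1.26 ± 0.76 on the log2 scale (adjusted p 0.434, and 0.0245 under the block, which also called EMCN, lower). Pluripotency markers (4 of 7 tested, median -0.36) had 0 called by either fit and 0 at an unadjusted p under 0.05. Under that stricter filter only TDGF1 of them remained, at 0.09. NANOG was at 0 counts in 5 libraries. Endoderm markers (4 of 8 tested, median -1.07) had 0 called by edgeR and 0 at an unadjusted p under 0.05 without the block, and AFP was called lower with it (adjusted p 0.0255). Cardiomyocyte markers had a median of -0.18, with 0 of 12 called by edgeR without the block and 3 at an unadjusted p under 0.05, where 17.7% of all genes had one. With the block MYH7 (adjusted p 0.0359) and ACTN2 (0.0494) were called, both lower. Both were among the 3 at an unadjusted p under 0.05, and the other of those 3 was higher, without overlap between media.

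By Pearson's r of log2 CPM over the 6 libraries, which share their media and replicate numbers, the 3 genes of at least 10 CPM most like each member were as follows (n = 6 throughout). FOSL2 was closest to C22orf23, ARID4A and COL11A1, a fibrillar collagen (r of 0.996 to 0.998). NR4A1 was closest to CRIM1, DTNA and CHSY1 (0.994 to 0.996), and FOSB to MIEF2, DCLK2 and ATXN1 (0.986 to 0.991). JUN was closest to NT5C2, ZBTB22 and its own relative JUND (0.989 to 0.994), and ATF3 to ZDHHC9, LOC101928841 and BET1L (0.993 to 0.999). JUNB was closest to RHOBTB2, RECK and PPIG (0.992 to 0.996), FOS to TMEM258, MBD5 and C12orf57 (0.985 to 0.987), and FOSL1 to PEX7, ZNF875 and NEDD4L (0.972 to 0.973). EGR1 was closest to MARCHF9, TIMM29 and PAAF1 (0.981 to 0.985), and MYC to N4BP1, PPARD and RNF207 (0.980 to 0.986). Of these 30 genes COL11A1 (log2 fold change -4.47), C22orf23 (-0.96) and CRIM1 (-2.04) were called, all lower in DMEM plus fatty acids. With 6 libraries, high values of r are common, and they are given as descriptions only.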
